A study of Arabidopsis thaliana with 8 samples.

Results

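PHAVOLUTA (PHV, locus AT1G30490) and ARGONAUTE7 (AGO7, locus AT1G69440) are genes tied to adaxial fate, the identity of the upper leaf face. They were chosen as the genes that a probe set names by either symbol. The array has 1 probe set for each, so both genes were measured once per array, among 22746 probe sets and 13286 named genes in all. Both lie on chromosome 1 in the TAIR10.1 gene table. Transcripts were measured on 8 one-colour Affymetrix arrays, each with RNA from shoot apices of seedlings grown in short days and sampled 14 days after sowing, or, in the words of the design text on the mutants, at a "similar age". The triple mutant fil yab3 yab5 (alleles fil-8, yab3-2 and yab5-1) was measured on 2 arrays, the double mutant fil yab3 (fil-8 and yab3-2) on 2 arrays and wild type on 4 arrays. All plants, mutants included, were of the Landsberg erecta (Ler) ecotype. The labels state neither how strong the alleles are nor how many plants were pooled for an array. They also do not say that arrays of a group came from separate plants. The spread behind each p-value is therefore the spread of these arrays alone, and part or all of it may be technical.

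A leaf primordium acquires an adaxial and an abaxial side, and the boundary between them drives growth of the blade. PHV encodes a class III homeodomain-leucine zipper (HD-ZIP III) transcription factor that promotes adaxial fate, and its transcript is cut on the abaxial side under the guidance of the microRNAs miR165 and miR166. AGO7 encodes the Argonaute protein that binds miR390 and starts the production of TAS3 trans-acting small RNAs, which restrict the abaxial auxin response factors ETT and ARF4. The YABBY genes FIL, YAB3 and YAB5 are expressed abaxially and encode transcription factors, so the comparison asks whether adaxial genes change in level when abaxial YABBY genes are lost.

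The genotype labels were checked first. YAB3 signal was 4.40 and 5.50 on the triple mutant arrays and 3.35 and 4.99 on the double mutant arrays, against 8.46, 8.35, 9.48 and 8.91 on wild-type arrays 1 to 4. Every mutant array lay below every wild-type array. YAB5 signal was 5.28 and 5.02 in the triple mutant and 6.03 and 5.60 in the double mutant, against 7.52 and 7.17 on wild-type arrays 1 and 2 and 5.51 and 5.32 on wild-type arrays 3 and 4. For YAB5 the triple mutant arrays lay below every wild-type array, while the double mutant arrays lay between the wild-type pairs. The margin was small, 5.28 on triple mutant array 1 against 5.32 on wild-type array 4. Against wild-type arrays 3 and 4 the triple mutant difference was -0.26 (limma adjusted p = 0.490). How many probe sets share this order was not counted, so the YAB5 signal is a weak check of the label. FIL is not analysed here.

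The wild-type arrays stood apart as pairs, and this touches every PHV value. Pearson's r across the 13888 tested probe sets, those with a log2 signal above 4 on at least 2 arrays, was 0.970 within either pair and 0.861 to 0.888 across pairs. For the mutant arrays r was 0.913 to 0.956 against wild-type arrays 3 and 4 and 0.850 to 0.914 against wild-type arrays 1 and 2. The median log2 signal of 45 control probe sets for bacterial and phage transcripts was 2.98 to 4.45 on the 4 mutant arrays and wild-type arrays 3 and 4, against 7.02 and 7.06 on wild-type arrays 1 and 2. The median of 69 plastid-encoded probe sets was 3.06 to 6.11 on those same 6 arrays, against 11.21 and 11.18 on wild-type arrays 1 and 2. The labels give no batch that matches these pairs. Their part in the results on PHV was not tested, and the differences of PHV, AGO7 and the YABBY genes from wild type are given against all wild-type arrays and against either pair.

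PHV signal, as deposited log2 values, was 8.94 and 8.86 on the 2 triple mutant arrays and 9.47 and 8.81 on the 2 double mutant arrays. It was 9.65 and 9.85 on wild-type arrays 3 and 4 and 7.99 and 7.66 on wild-type arrays 1 and 2. Every mutant array thus lay below wild-type arrays 3 and 4 and above wild-type arrays 1 and 2. The highest mutant array, double mutant array 1, was 0.18 below the lower of wild-type arrays 3 and 4. The lowest mutant array, double mutant array 2, was 0.81 above the higher of wild-type arrays 1 and 2. The order of mean levels was wild-type arrays 3 and 4 (9.75 ± 0.14, SD, n = 2), the double mutant (9.14 ± 0.47, n = 2), the triple mutant (8.90 ± 0.06, n = 2) and wild-type arrays 1 and 2 (7.83 ± 0.23, n = 2). The triple and double mutants, next to each other in that order, did not differ beyond the spread of the double mutant arrays. In bulk apices, a change in the number of cells that express PHV and a change in PHV RNA per cell cannot be told apart.

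**Figure D1:**
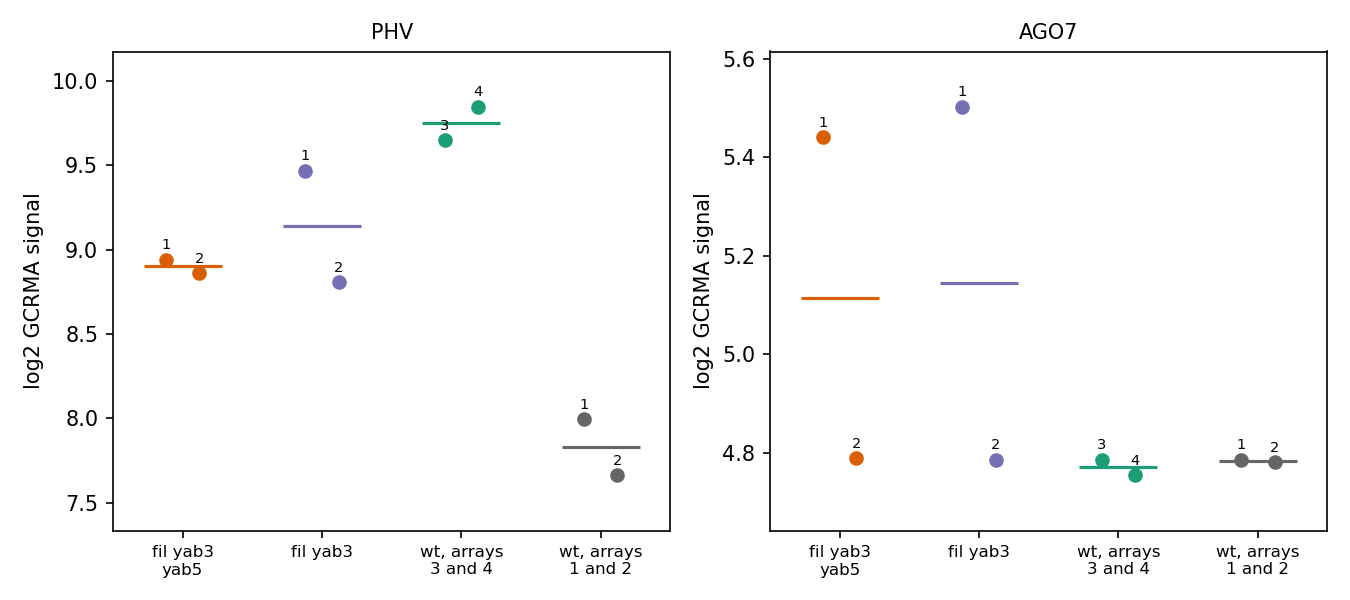
Log2 GCRMA signal of PHV (left) and AGO7 (right) on each of the 8 arrays, with points numbered by array and a horizontal line at the mean of each set of 2 arrays. For PHV all 4 mutant arrays lie between wild-type arrays 3 and 4 and wild-type arrays 1 and 2, and for AGO7 only triple mutant array 1 and double mutant array 1 lie above 5.

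With all wild-type arrays as 1 group, PHV signal averaged 8.90 ± 0.06 in the triple mutant (SD, n = 2), 9.14 ± 0.47 in the double mutant (n = 2) and 8.79 ± 1.12 in wild type (n = 4). The differences were fitted with limma across all tested probe sets, as 3 groups with a shared spread, and are log2 differences of mutant minus wild type. PHV differed by 0.11 ± 0.66 (SE) in the triple mutant, with a 95% interval of -1.43 to 1.66 (limma adjusted p = 0.942). It differed by 0.35 ± 0.66 in the double mutant, with an interval of -1.19 to 1.89 (limma adjusted p = 0.908). Averaged over both mutants the difference was 0.23 ± 0.54, with an interval of -1.03 to 1.49 (limma adjusted p = 0.852). An exact two-sided permutation test of the 4 mutant against the 4 wild-type arrays gave p = 0.686, where the smallest p that 70 splits allow is 0.0286. These intervals are wide because the spread between the wild-type pairs enters them, and they do not show that PHV was equal in the groups.

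Against either pair of wild-type arrays the PHV differences were larger and opposite in sign. Against wild-type arrays 3 and 4, PHV differed by -0.85 ± 0.26 in the triple mutant (interval -1.49 to -0.20, limma adjusted p = 0.102) and by -0.61 ± 0.26 in the double mutant (interval -1.26 to 0.04, limma adjusted p = 0.367). For both mutants together the difference was -0.73 ± 0.22 (interval -1.29 to -0.17, limma adjusted p = 0.126, unadjusted p = 0.0195), and it did not pass the threshold of 0.05. Against wild-type arrays 1 and 2, PHV was higher by 1.07 ± 0.28 in the triple mutant (interval 0.39 to 1.76, limma adjusted p = 0.041) and by 1.31 ± 0.28 in the double mutant (interval 0.62 to 2.0, limma adjusted p = 0.038). Both mutants together were higher by 1.19 ± 0.24 (interval 0.60 to 1.78, limma adjusted p = 0.021). The direction of the PHV difference therefore changed with the wild-type arrays used, and only the comparisons with arrays 1 and 2 passed.

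**Figure D2:**
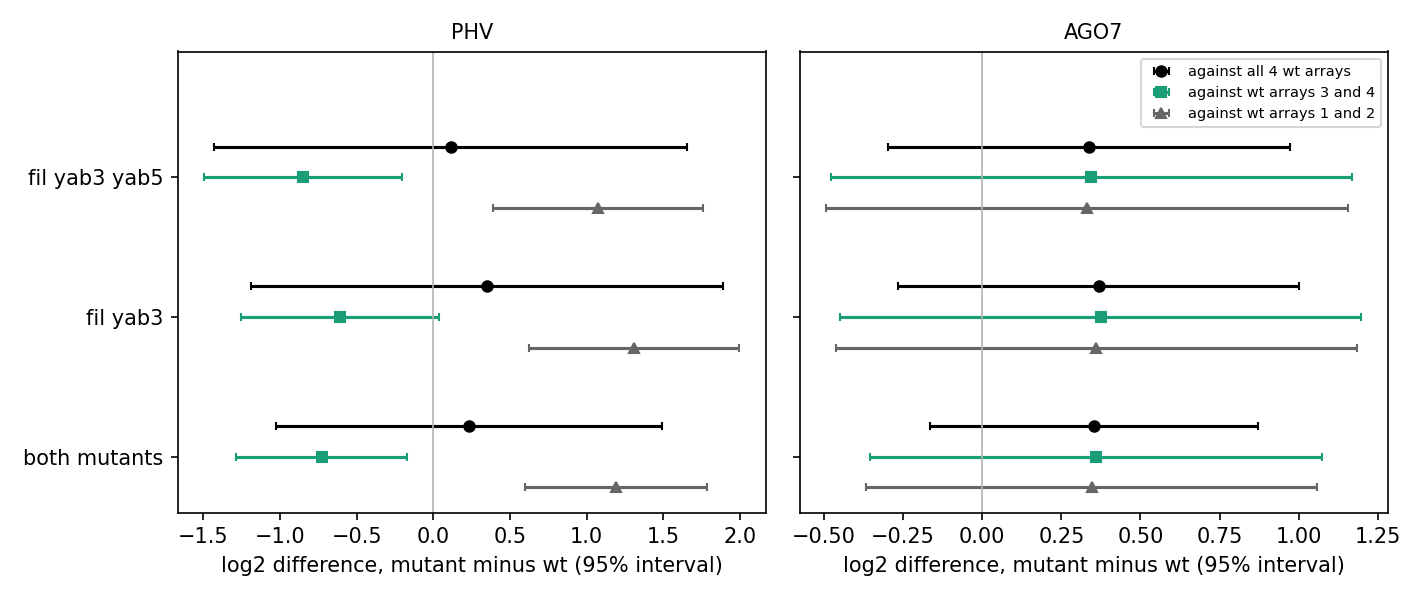
Log2 difference of mutant minus wild type for PHV (left) and AGO7 (right), with 95% intervals from limma, against all wild-type arrays (circles), wild-type arrays 3 and 4 (squares) and wild-type arrays 1 and 2 (triangles). The PHV differences lie at -0.85 to -0.61 against wild-type arrays 3 and 4 and at 1.07 to 1.31 against wild-type arrays 1 and 2, while those of AGO7 lie at 0.33 to 0.37 in every case.

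These calls were read against the share of all probe sets that passed. With all wild-type arrays, 0 of the 2 genes passed in any comparison, where 3.87% of 13888 probe sets passed for the triple mutant, 0.166% for the double mutant and 1.84% for both mutants together. At an unadjusted p under 0.05, still 0 of the 2 genes passed in those 3 comparisons, where 2776, 964 and 2435 probe sets did. Against wild-type arrays 3 and 4, where neither gene passed, 9.26%, 0.359% and 4.18% of 13664 probe sets passed. At an unadjusted limma p under 0.05, 3880, 1963 and 3417 of those 13664 did, PHV among them for the triple mutant and for both mutants together. Those shares count calls in either direction. Against wild-type arrays 1 and 2, where PHV passed in each, 24.5%, 13.0% and 25.5% of 13734 probe sets passed in either direction. As higher, the direction of PHV, 11.2%, 6.09% and 12.3% passed. A PHV call against those arrays thus stood among 1536, 837 and 1695 higher calls.

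The 2 wild-type pairs differed in PHV by 1.92 log2 units, a 3.79-fold difference with arrays 3 and 4 higher. No test is given for it, because the pairs are not groups of the study. Wild-type arrays 3 and 4 both lay above arrays 1 and 2 in 36.5% of tested probe sets and both below them in 29.2%. Few probe sets differed as much: 6.11% had a gap of at least the size of the PHV gap in either direction, and 2.30% had one with arrays 3 and 4 higher. The median absolute gap over all tested probe sets was 0.50. All mutant arrays lay strictly between the wild-type pairs, in either order of the pairs, in 859 tested probe sets (6.19%). With arrays 3 and 4 higher, as for PHV, they did so in 441 (3.18%). All mutant arrays were below wild-type arrays 3 and 4 in 16.7% of tested probe sets and above wild-type arrays 1 and 2 in 24.3%, so each side of the PHV order on its own was common. Neither gene had all mutant arrays above or all below every wild-type array, which 10.1% of tested probe sets had.

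**Figure D3:**
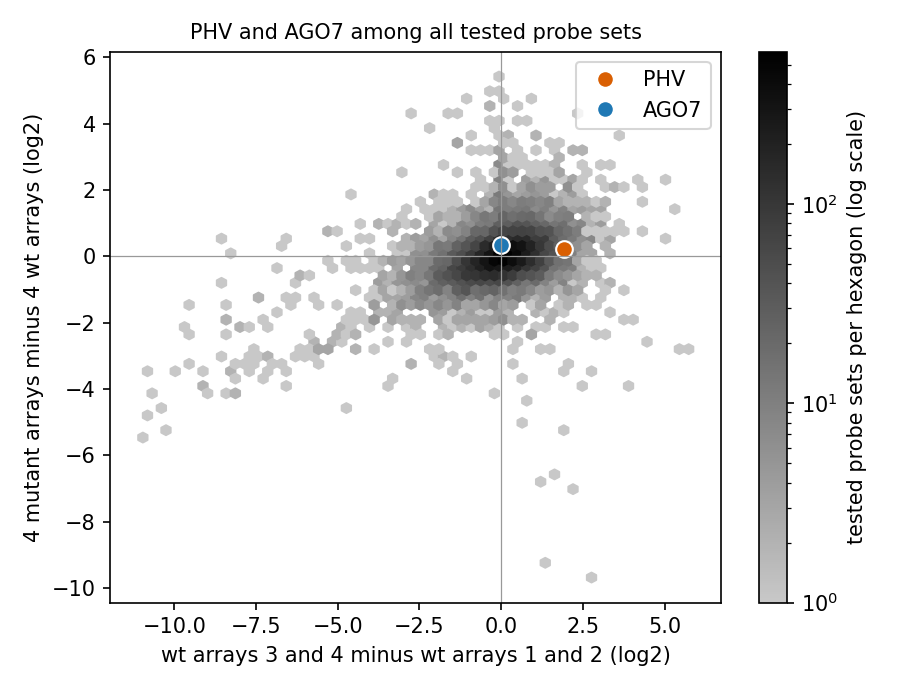
Each hexagon counts tested probe sets (grey scale, log) by the log2 difference of wild-type arrays 3 and 4 minus wild-type arrays 1 and 2 (horizontal) and of the 4 mutant arrays minus the 4 wild-type arrays (vertical). PHV lies far to the right at 1.92 and near 0 vertically at 0.23, and AGO7 lies near the origin at -0.01 and 0.35.

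AGO7 signal was 5.44 and 4.79 on the triple mutant arrays and 5.50 and 4.79 on the double mutant arrays. It was 4.79 and 4.75 on wild-type arrays 3 and 4 and 4.79 and 4.78 on wild-type arrays 1 and 2. One array of each mutant was high, array 1 in both cases, and the other array of each mutant was level with wild type. The 6 arrays other than those 2 lay within 0.035 log2 units of each other, and the lower of the 2 high arrays was 0.65 above the highest of them. The deposited value was identical to every digit on 3 arrays, double mutant array 2 and wild-type arrays 1 and 3. Such a repeated value above 4, on at least 3 arrays, occurred in 498 tested probe sets (3.59%), and at least 6 arrays within 0.05 log2 units in 177 (1.27%). Wild-type arrays 2 and 4, at 4.78 and 4.75, lay slightly below the repeated value. What sets such a value was not tested, and differences in AGO7 RNA near or below it may not show.

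AGO7 averaged 5.11 ± 0.46 in the triple mutant (SD, n = 2), 5.14 ± 0.51 in the double mutant (n = 2) and 4.78 ± 0.02 in wild type (n = 4). It differed from wild type by 0.34 ± 0.27 (SE) log2 units in the triple mutant (95% interval -0.30 to 0.97, limma adjusted p = 0.543). In the double mutant it differed by 0.37 ± 0.27 (interval -0.27 to 1.0, limma adjusted p = 0.795). Both mutants together differed by 0.35 ± 0.22 (interval -0.17 to 0.87, limma adjusted p = 0.448), and the exact two-sided permutation test gave p = 0.0857. Against wild-type arrays 3 and 4 these differences were 0.34, 0.37 and 0.36, and against wild-type arrays 1 and 2 they were 0.33, 0.36 and 0.35. The 4 wild-type arrays lay within 0.032 log2 units at a partly repeated value, so exchanging them could move the difference little.

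The AGO7 differences rested on the high arrays. Without triple mutant array 1 the triple mutant difference was 0.01 (limma adjusted p = 0.996), and without triple mutant array 2 it was 0.66 (limma adjusted p = 0.599). Without double mutant array 1 the double mutant difference was 0.01 (limma adjusted p = 1.0), and without double mutant array 2 it was 0.73 (limma adjusted p = 0.610). Triple mutant array 1 and double mutant array 1 were the 2 highest arrays in 416 of 13888 tested probe sets. The shared number 1 does not pair these arrays by label.

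The triple mutant was set against the double mutant to ask what the added loss of YAB5 changes. PHV signal was 8.94 and 8.86 in the triple mutant, against 9.47 and 8.81 in the double mutant, and differed by -0.24 ± 0.76 (SE, 95% interval -2.02 to 1.54, limma adjusted p = 1.0). No wild-type array enters this difference, but the gap between the wild-type pairs widens its SE through the shared spread. Fitted on the mutant arrays alone, the PHV difference was -0.24 ± 0.27 (interval -0.99 to 0.52, limma adjusted p = 0.723). AGO7 signal was 5.44 and 4.79 in the triple mutant, against 5.50 and 4.79 in the double mutant, and differed by -0.03 ± 0.31 (interval -0.76 to 0.70, limma adjusted p = 1.0). The arrays of the mutants overlapped for both genes. In this comparison 0 of the 2 genes passed, where 0.677% of tested probe sets did, and neither gene had an unadjusted p under 0.05, where 1192 probe sets did.

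Other genes of the same pathways were taken from lists written for this comparison, but few have a named probe set. Of 91 listed genes, 13 are named here and 7 were tested, PHV and AGO7 included. PHV is the only named gene of 5 HD-ZIP III genes, and AGO7 the only one of 7 genes of the trans-acting small RNA pathway, so PHB, REV, SGS3 and RDR6 are not analysed here. Among 7 other adaxial regulators only PGY1, a ribosomal protein gene whose mutants enhance adaxial defects, is named. Its signal was 12.86 and 12.93 in the triple mutant and 13.09 and 12.86 in the double mutant, against 12.94 and 12.89 on wild-type arrays 3 and 4 and 12.69 and 12.66 on wild-type arrays 1 and 2. PGY1 was above wild-type arrays 1 and 2 on every mutant array, as were 24.3% of tested probe sets, and overlapped with arrays 3 and 4. It differed from all wild-type arrays by 0.10 ± 0.19 in the triple mutant (limma adjusted p = 0.812) and 0.18 ± 0.19 in the double mutant (limma adjusted p = 0.844).

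Of the small RNA and corepressor genes, SE and SEU were tested. SE, which acts with DCL1 in microRNA processing, had signals of 8.24 and 8.09 in the triple mutant and 8.46 and 8.25 in the double mutant, against 8.53, 8.10, 8.42 and 8.51 in wild type. Its difference was -0.23 ± 0.20 in the triple mutant (limma adjusted p = 0.591) and -0.04 ± 0.20 in the double mutant (limma adjusted p = 0.970). SEU, a corepressor subunit that partners YABBY proteins, had signals of 9.02 and 8.93 in the triple mutant and 7.99 and 9.26 in the double mutant, against 8.94, 8.94, 8.93 and 8.98 in wild type. It differed by 0.03 ± 0.33 in the triple mutant (limma adjusted p = 0.974) and -0.32 ± 0.33 in the double mutant (limma adjusted p = 0.845). The double mutant arrays lay on either side of wild type. Of the listed abaxial genes, YAB3 fell in both mutants, with differences of -3.85 ± 0.55 in the triple mutant (limma adjusted p = 0.013) and -4.63 ± 0.55 in the double mutant (limma adjusted p = 0.033). YAB3 was lower in the triple and double mutants against either wild-type pair, by differences of -4.25 and -5.03 for arrays 3 and 4 and by -3.46 and -4.24 for arrays 1 and 2, so its direction did not turn as that of PHV did. The double mutant call was lost against arrays 3 and 4 (limma adjusted p = 0.065). It was also lost without any 1 of the 8 arrays (limma adjusted p of 0.057 to 0.277), and the triple mutant call was lost without triple mutant array 1 (limma adjusted p = 0.169) or 2 (limma adjusted p = 0.091), with differences of -3.30 and -4.41. The differences stayed at -3.81 to -5.45 in the double mutant when 1 array was left out. For both mutants together YAB3 fell with a difference of -4.24 ± 0.45 (limma adjusted p = 0.0050), which passed in all 18 alternatives run for it (highest limma adjusted p = 0.042). YAB5 differed from all wild-type arrays by -1.23 ± 0.66 in the triple mutant (limma adjusted p = 0.358) and -0.57 ± 0.66 in the double mutant (limma adjusted p = 0.858). Against wild-type arrays 3 and 4 the YAB5 differences were -0.26 in the triple mutant (limma adjusted p = 0.490) and 0.40 in the double mutant (limma adjusted p = 0.462). Against wild-type arrays 1 and 2 they were -2.20 (limma adjusted p = 0.0042) and -1.53 (limma adjusted p = 0.020). INO, the YABBY gene of ovules, stayed at or below 2.11 on every array and was not tested.

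**Figure D4:**
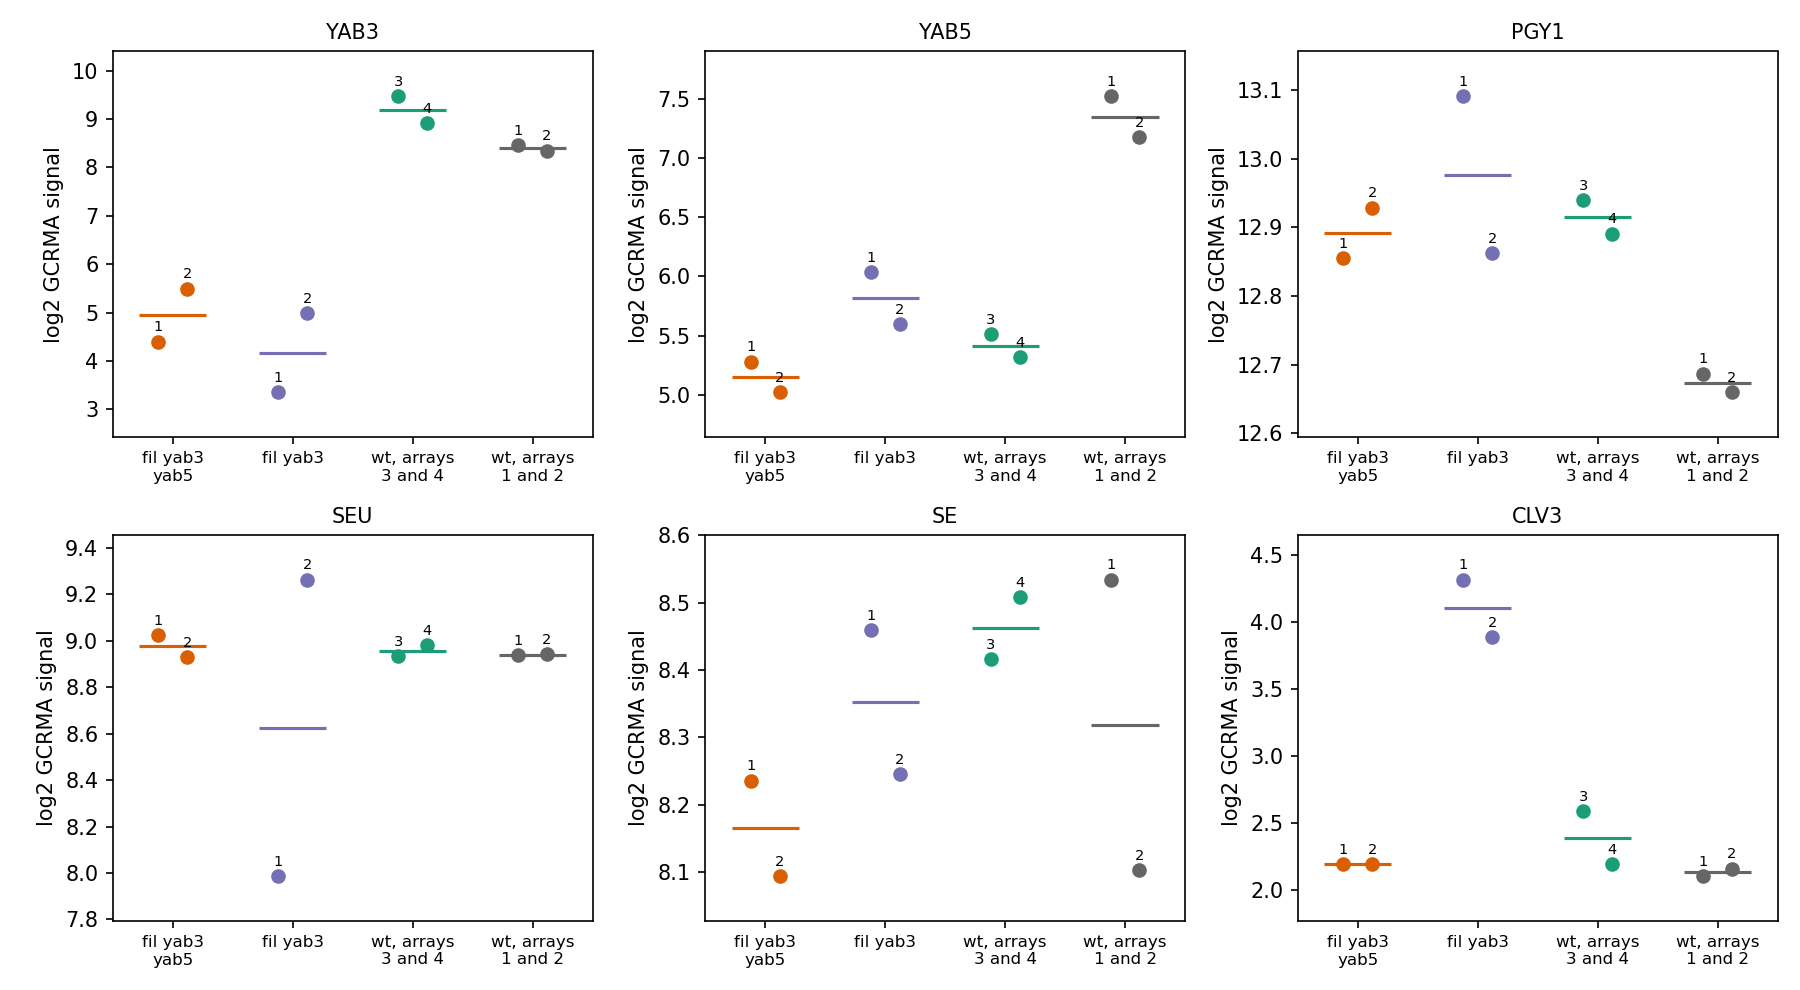
Log2 GCRMA signal on each array for YAB3, YAB5, PGY1, SEU, SE and the stem cell marker CLV3, with points numbered by array and a line at the mean of each set of 2 arrays; the vertical scales differ. YAB3 separates mutants from all wild-type arrays, YAB5 and PGY1 separate wild-type arrays 1 and 2 from arrays 3 and 4, and CLV3 is above 3.8 on the double mutant arrays alone.

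The labelled tissue was checked against listed markers. Of 12 apex meristem markers 3 are named, and none passed the filter. CLV3, the peptide gene expressed in shoot stem cells, was at 2.19 on both triple mutant arrays and at 4.32 and 3.89 on the double mutant arrays, against 2.102 to 2.59 in wild type. LAS, an axillary meristem regulator, was at 2.15 to 2.94 and UFO, a floral regulator, at 2.102 to 2.109 over all arrays, near the lowest value of the table, 2.102. The root hair gene EXPA7 was at 2.102 on every array. None of the listed xylem, green leaf and floral markers is named here, so the share of those tissues in the samples was not measured.

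The named genes most like PHV across arrays were found by Pearson's r over 7418 other genes, as a description, since all points share arrays and normalization. Over all 8 arrays these were AT5G09880 (r = 0.988), AT5G02690 (r = 0.984) and AT3G19515 (r = 0.980). AT5G09880 lay at 10.21 to 10.72 in the mutants, against means of 10.78 on wild-type arrays 3 and 4 and 9.41 on arrays 1 and 2, so it had the same gap between the pairs as PHV in kind. Without wild-type arrays 1 and 2 the most alike were AT5G26610 (r = 0.991), AT3G19515 (r = 0.987) and AT1G22790 (r = 0.985) over 6 arrays. AT3G19515 was the only gene in both sets, at 5.50 to 6.15 in the mutants and means of 6.42 and 4.85 on wild-type arrays 3 and 4 and arrays 1 and 2.

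For AGO7 the most alike over 8 arrays were AT3G03620 (r = 0.996), AT3G16330 (r = 0.981) and AT5G66780 (r = 0.979). AT3G03620 lay at 2.15 to 4.55 in the mutants, against means of 2.15 on wild-type arrays 3 and 4 and 2.15 on arrays 1 and 2. AT5G66780 lay at 2.12 to 5.52 in the mutants, against means of 2.11 on either wild-type pair. AT3G03620 and AT5G66780 thus passed the filter at 4, and entered the search, only through mutant arrays where they were high. AT3G16330 lay at 3.66 to 4.81 in the mutants, against means of 3.46 on wild-type arrays 3 and 4 and 3.57 on arrays 1 and 2. Both of its wild-type means were also below the filter at 4. Over the 6 arrays without wild-type arrays 1 and 2 the most alike were AT3G03620 (r = 0.996), AT1G08230 (r = 0.992) and AT1G68430 (r = 0.988). Each of these coefficients is set by the 2 arrays on which AGO7 was high.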

How the data were processed

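The authors deposited a log2 value per probe set and array. Per the submitters' processing notes it comes from GCRMA (R 2.7.2), which uses probe sequence for background, quantiles for normalization and 1 summary per probe set. Its settings are not given in these sources. Values span 2.102 to 15.76, which fits a log2 scale. After 64 control probe sets were set aside, 13888 of 22746 probe sets were tested, those above 4 on 2 arrays or more. Names came from the platform annotation, where 13436 of 13513 probe sets naming 1 gene matched the TAIR10.1 gene table; of the tested ones 7512 name 1 gene, 278 several and 6098 none here.

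Differences were tested by two-sided limma (version 3.58.1, R 4.3.3, moderated by eBayes, 5 residual degrees of freedom with all arrays as 3 groups), with Benjamini-Hochberg adjustment over all tested probe sets and a threshold of 0.05. The fits against either wild-type pair had 3 residual degrees of freedom, and the replicate block had 2. Exact permutation tests used scipy 1.17.1 and figures matplotlib 3.10.9. The fit was also run on simulated data. These held no gap between the wild-type pairs, so they do not show how the fit handles that gap. Alternatives were other filters, normalizations, variance models, wild-type arrays, a replicate block and leaving out each array. Genes named are PHV, AGO7, list members with a named probe set and the 3 genes most like each by Pearson's r. The members and lists were chosen with earlier results of these data known. The number of arrays limits the precision.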

Additional observations from a re-analysis of the deposited data

Results flagged for a closer look

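AGO7 on wild-type array 4, at 4.75, stood apart from the other 3 wild-type arrays by 0.843 of the group's range, above Dixon's 95% critical value for 4 samples. The whole range of the group was 0.03 log2 units. Chance alone marks about 5% of groups in this way where values vary freely. Here wild-type arrays 1 and 3 held an identical value, so that rate need not hold.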

How the results depend on the processing

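The PHV difference turned to -0.45 in the triple mutant, -0.21 in the double mutant and -0.33 in both together with array weights, and to -0.85, -0.61 and -0.73 with wild-type arrays 3 and 4 only. It passed at 1.07, 1.31 and 1.19 with wild-type arrays 1 and 2 only. The replicate block gave the same 1.07, 1.31 and 1.19 (limma adjusted p = 0.043, 0.047 and 0.025), since wild-type arrays 3 and 4 then have terms of their own. Deviations of same-numbered arrays from their group means correlated at -0.10 to 0.00. In each mutant group the deviations of arrays 1 and 2 mirror each other, and in wild type they hold the gap between the pairs. These correlations therefore cannot show whether the numbers pair arrays. The block changed no AGO7 call. Leaving out 1 array gave PHV -0.26 to 0.47 in the triple mutant, -0.03 to 0.70 in the double mutant, -0.14 to 0.58 in both and -0.57 to 0.09 between the mutants. AGO7 passed in 0 of 71 alternative fits (limma) and turned sign only between the mutants, at -0.39 to 0.33 when 1 array was left out.

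With wild-type arrays 3 and 4 only, YAB5 turned to 0.40 in the double mutant, from -0.57, and to 0.07 in both, from -0.90, and PGY1 to -0.02 in the triple mutant. YAB5 passed in 8 of 75 alternative fits: with arrays 1 and 2 only and with the replicate block in the triple mutant, the double mutant and both, and with the pairs as separate groups in the triple mutant (-1.23, limma adjusted p = 0.010) and both (-0.90, limma adjusted p = 0.018). SEU turned to -0.03 in the triple mutant with median centring. SE turned to 0.03 in the double mutant with the replicate block or wild-type arrays 1 and 2 only. With 1 array left out, the differences between the mutants were -0.04 to 1.59 for YAB3, -0.20 to 0.03 for PGY1 and -0.29 to 0.99 for SEU. In that setting SEU was at -0.02 to 0.08 in the triple mutant, -0.96 to 0.31 in the double mutant and -0.47 to 0.17 in both, and SE at -0.14 to 0.07 in the double mutant. The YAB3 call in the triple mutant was lost without either triple mutant array and with no filter, and that in the double mutant without any 1 array, with no filter and with a fit of only the groups compared (limma adjusted p = 0.057).

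Probe sets called numbered 538, 23, 255 and 94 for the triple mutant, the double mutant, both, and triple against double. They were 3366, 1790, 3498 and 149 with wild-type arrays 1 and 2 only, 1265, 49, 571 and 143 with arrays 3 and 4 only, 2500, 950, 2528 and 74 with the replicate block, and 2484, 332, 1934 and 233 with the pairs as separate groups. Array weights gave 1826, 26, 392 and 284, no filter 430, 12, 213 and 144, and the filter at 6 gave 422, 22, 194 and 55. A fit of only the groups compared gave 297, 20 and 66 for the triple mutant, the double mutant and triple against double. Leaving out 1 array gave 46 to 578, 0 to 26, 55 to 325 and 11 to 94; the 0 (limma, without double mutant array 1) had 433 at an unadjusted p under 0.05. Higher calls numbered 308 of 538 in the triple mutant, 851 of 1826 with array weights and 1078 of 2484 with the pairs as separate groups. The cause of these shifts was not tested. AGO7 was too dim for the filter at 6, which therefore gave no value for it. Another probe set of the same gene was not tried, since none names either gene.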

Other observations

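CLV3 was too dim for the filter, and no difference is given for it. Its triple mutant arrays held 1 repeated value, 2.19, near the lowest value of the table, so that level is not well measured. Both double mutant arrays, at 4.32 and 3.89, lay above the other 6 arrays, as they did for 450 of 22746 probe sets (1.98%).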
